A study of Mus musculus with 2 samples.

Results

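The RFX family and RFX complex genes described here are Rfx1, Rfx2, Rfx3, Rfx4, Rfx5, Rfx7, Rfxank and Rfxap, 8 of the 22367 protein-coding genes placed on chromosomes in GENCODE M1. They were taken by name, without Rfx6, and every peak of the tagged Rfx6 protein with its summit inside one of them or at most 50 kb from either end was assigned to it. The question was whether Rfx6 bound at genes of its own family. This rule gave 27 of the 23308 peaks. No peak was assigned to more than one of the 8 genes.

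The data are anti-HA (12CA5) ChIP-seq libraries from Min6b1 cells, a mouse pancreatic β cell line. In the HA-Rfx6 library the cells had received 24 μg of the plasmid pCMV-Tag2A-3HA-Rfx6 and were harvested 2 days later, so the values concern a tagged protein made from a transfected plasmid and not the Rfx6 of the cells alone. The HA-Ctrl library is labelled as Min6b1 cells, and since its growth text equals that of the HA-Rfx6 library, whether it received any plasmid could not be read from the labels. There was 1 library of each, no value has a replicate error, and no test between conditions was possible. The files hold binding sites and no expression values, so the cell type was not checked against markers.

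RFX proteins share a winged-helix DNA-binding domain that recognises the X-box, an inverted repeat of a pair of short half-sites. Rfx1, Rfx2 and Rfx3 can bind it as dimers and are known for the control of ciliary genes, and Rfx3 also for the development of islet endocrine cells. Rfx4 acts in the developing brain. Rfx5 forms the RFX complex with Rfxank and Rfxap, which binds the X-box of MHC class II promoters, and Rfx7 is the closest relative of Rfx5 in the family.

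The number of reads in a peak is given without normalization, from 33949757 reads retained in the HA-Rfx6 library against 3567375 in the control. The fold enrichment is the ratio of a peak to the background that MACS expected from the control and from the surrounding region. An exact 95% Poisson interval of the reads covers counting error only. Positions are those of the mouse build NCBIM37 (mm9).

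A summit lay in or near 7 of the 8 genes, and Rfx7 had none. Since 67.8% of all protein-coding genes met the same rule, a count of 7 is not by itself a result about the family. Inside the gene, a summit was found in 6 of the 8 (Rfx1, Rfx2, Rfx3, Rfx4, Rfx5 and Rfxap), against 31.3% of all protein-coding genes. At most 1 kb from an annotated start, a summit was found for Rfx1, Rfx5 and Rfxap, or 3 of 8, against 23.7%. At most 5 kb from a start, Rfx2 and Rfx4 were added, making 5 of 8, against 32.8%. The shares of all genes were not matched for gene length, and Rfx1, Rfx2, Rfx3 and Rfx4 are 30.2 to 249 kb long. A longer gene offers more room for a summit. These shares are descriptions of 1 library and were not tested.

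The 27 peaks were unequal in size. Their reads ranged from 41 to 469 with a median of 78.0, beside 73.0 for all peaks. Their fold enrichment ranged from 4.34 to 70.4 with a median of 8.83, beside 8.54 for all peaks. In the middle of the range the peaks of the RFX genes were thus close to the list as a whole. At least 182 reads, the 90th percentile of the list, were held by 5 of the 27 and by 2359 of the 23308 peaks. Among the 5, the peaks of 220 and 195 reads assigned to Rfx1 lay outside that gene. The highest were 1 peak in Rfx2 and 1 in Rfx4.

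**Figure D1:**
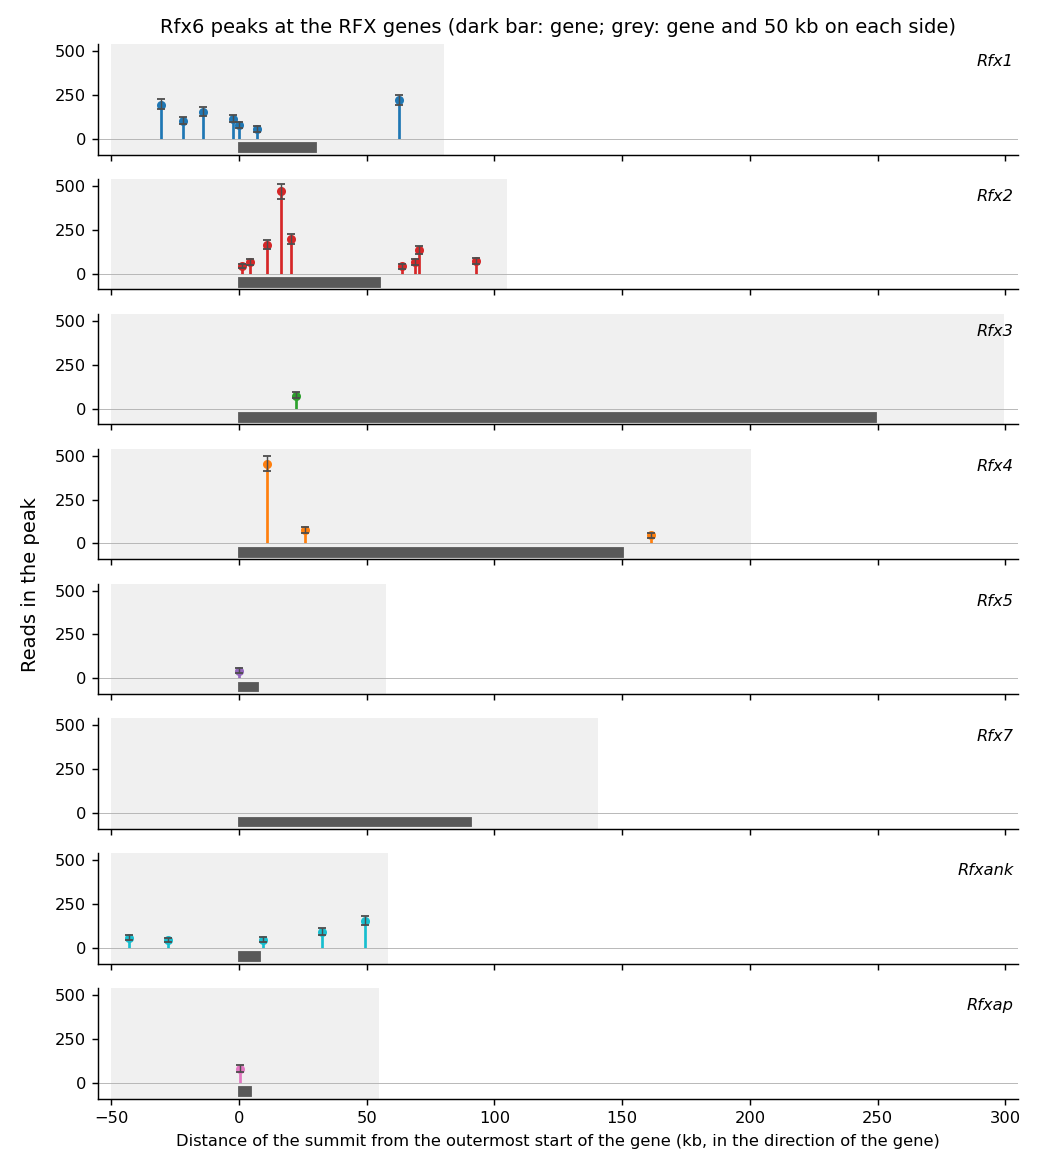
Reads of each peak (vertical axis) against the distance of its summit from the outermost start of the gene in kb, in the direction of the gene, with 1 panel per gene. Bars are exact 95% Poisson intervals, the dark bar is the gene and the grey area is the gene with 50 kb on each side. Rfx2 (469 reads) and Rfx4 (455 reads) hold the highest peaks, and Rfx7 holds none.

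Rfx2 (ENSMUSG00000024206.8), known for its part in ciliated cells and in the maturation of male germ cells, spans chr17:56915320-56970431 on the minus strand. It had 9 summits in a stretch of 155 kb, or 5.80 per 100 kb, whereas the median protein-coding gene had 0.976 per 100 kb of the same kind of stretch. As many summits or more were counted for 4.14% of the protein-coding genes, and a density at least as high for 6.21%. In Rfx2 itself 5 summits were found, and each of the 5 lay in intron 1 of the transcript with 18 exons, which is 22.6 kb long.

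The strongest peak of the 8 genes, which leave out Rfx6, was in that intron, 16.5 kb after the start (peak chr17:56952657-56954759, summit 56953941). Its 469 reads (428 to 513) went with a fold enrichment of 70.4. It ranked 113 by reads and 9 by fold enrichment among the 23308 peaks. Its score, minus 10 times log10 of the p-value, was 3100, a value shared by 77 peaks, and these have the largest FDR of the list, 25.3%. The FDR of the other peaks of the 8 genes lay between 1.84 and 16.4%.

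On either side of it in the intron were peaks of 195 reads (169 to 224), 20.5 kb after the start with a fold enrichment of 22.1, and of 165 reads (141 to 192), 11.0 kb after the start with a fold enrichment of 17.2. The Poisson intervals of these flanking peaks overlap each other and not that of the central peak. Nearer to the start, the peaks were lower, with 66 reads at 4.28 kb and 42 reads at 1.10 kb. The reads in the intron were thus highest 16.5 kb after the start, and the 2 peaks nearest to the promoter were below the list median.

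Windows of 100 bases centred on the summits of the 3 highest peaks of Rfx2 are shown because each holds a sequence close to the X-box. Letters in capitals match the half-sites GTTGCC and GGCAAC, with 0 to 3 bases between them, in at least 10 of their 12 letters. The sequences are on the strand of the gene.
Rfx2, 16.5 kb after the start, chr17:56953891-56953990, minus strand: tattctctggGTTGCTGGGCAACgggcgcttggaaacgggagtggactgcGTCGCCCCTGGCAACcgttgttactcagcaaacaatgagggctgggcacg
Rfx2, 20.5 kb after the start, chr17:56949851-56949950, minus strand: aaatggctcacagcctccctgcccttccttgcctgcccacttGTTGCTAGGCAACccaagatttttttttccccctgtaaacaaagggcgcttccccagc
Rfx2, 11.0 kb after the start, chr17:56959362-56959461, minus strand: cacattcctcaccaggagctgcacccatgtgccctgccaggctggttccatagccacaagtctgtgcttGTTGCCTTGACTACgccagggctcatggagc

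The strongest peak held 2 such matches, each with 1 mismatch, centred 8 and 33.0 bp from the summit. At least 2 separate matches were present in 464 of all peaks, or 1.99%, and this was the only peak of the RFX genes among them. The match of the 195-read peak had 1 mismatch and was centred 1.00 bp from the summit. In the 165-read peak it had 2 mismatches and was 26.5 bp away. The lower peaks at 4.28 and 1.10 kb had no match with fewer than 4 mismatches. Over the 5 intronic summits of Rfx2, those with a match were therefore the 3 with the most reads.

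The other 4 summits assigned to Rfx2 lay beyond its end, 8.78 to 37.7 kb away, with 41 to 134 reads. Their nearest protein-coding starts were those of Dus3l, a tRNA dihydrouridine synthase gene, and Nrtn, the gene of the growth factor neurturin, from 2.37 to 19.3 kb away, and the summit nearest to Rfx2 lay inside Dus3l. Upstream of Rfx2, 0 summits were listed in the 50 kb.

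Rfx4 (ENSMUSG00000020037.9), known from the development of the brain, spans chr10:84218807-84369283 on the plus strand. Of its 3 summits, 1 stood out. This peak extended from 84229081 to 84231689 in intron 1 of Rfx4-003, with its summit at 84229694, 10.9 kb after the outermost start and 4.71 kb after the start of the noncoding transcripts Rfx4-004 and Rfx4-005. It held 455 reads (414 to 499) and had a fold enrichment of 38.4 and a score of 2727, with rank 130 by reads and 296 by fold enrichment. Its reads did not differ from those of the strongest Rfx2 peak beyond counting error, since the intervals overlap, but its fold enrichment was lower. Of all protein-coding genes, 0.429% held a peak of at least 455 reads inside the gene, and of the 8 genes 2 did, a level chosen here after the values were known.

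The window of Rfx4 is printed because the match lies in a tandem repeat.
Rfx4, 10.9 kb after the start, chr10:84229644-84229743, plus strand: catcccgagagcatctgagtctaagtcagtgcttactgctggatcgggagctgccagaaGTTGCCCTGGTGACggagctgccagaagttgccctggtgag
A stretch of 26 bases, starting at base 47 of the window, recurs 27 bases later. It holds all but the last base of the match, so the half-site GTTGCC occurs in both copies, and the copy at the right end of the window differs enough to have over 2 mismatches. The match in capitals has 2 mismatches and is centred 15.5 bp from the summit. Counting each exact GTTGCC or GGCAAC, the 200 bp around this summit held 4 half-sites, the most among the 27 peaks.

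A lower peak in intron 2 of Rfx4-003, 25.9 kb after the start, held 75 reads (59.0 to 94.0) with a fold enrichment of 8.83, close to the medians of the list. The remaining one, with 46 reads, was 11.0 kb beyond the end of Rfx4 and 79 bp before the start of Ric8b.

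Rfx3 (ENSMUSG00000040929.9), the member with a known role in islet endocrine cells and in cilia, spans chr19:27836211-28085656 on the minus strand. It is the longest of the 8 genes at 249 kb, yet had 1 summit in a stretch of 349 kb, or 0.286 per 100 kb. This peak, from 28062760 to 28063987 with its summit at 28063383, was in intron 1 of Rfx3-004, 22.3 kb after the outermost start and 5.95 kb before the start of the shorter transcript Rfx3-203. It held 74 reads (58.1 to 92.9), about the list median, and had a fold enrichment of 13.2, which 25.1% of all peaks reached. The next summit outside the 50 kb was 185 kb away.

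The window at Rfx3 shows a match with 2 mismatches, centred 15.0 bp from the summit.
Rfx3, 22.3 kb after the start, chr19:28063333-28063432, minus strand: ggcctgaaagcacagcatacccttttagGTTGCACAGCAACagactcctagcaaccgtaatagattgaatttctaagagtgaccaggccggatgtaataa
Neither of its half-sites is exact, and this summit was the least GC-rich of the 27, with 45.0% G and C in the 200 bp around it, against a median of 54.0% for all peaks.

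Rfx1 (ENSMUSG00000031706.6), a broadly expressed member, spans chr8:86590735-86620891 on the plus strand. It had 7 summits, or 5.38 per 100 kb. This number was reached by 8.79% of the protein-coding genes and this density by 7.80%. At its start, a peak from 86590093 to 86591199 had its summit 2 bp before the annotated first base, with 78 reads (61.7 to 97.3) and a fold enrichment of 12.2. The gene C330011M18Rik, on the opposite strand, starts at 86591186 and extends over this summit. The best match at the summit to the half-sites had 3 mismatches.

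The only summit inside Rfx1 lay in exon 2 of its only annotated transcript, 6.97 kb after the start, with 54 reads (40.6 to 70.5) and a fold enrichment of 6.12, both below the list medians. Centred 33.5 bp from this summit was an X-box match with 1 mismatch at chr8:86597665-86597678 on the plus strand, which is shown because it spans the start codon of the gene.
Rfx1, exon 2, start codon at base 7: GTTGGCATGGCAAC
The first coding base of Rfx1 is 86597671, the seventh base of the match. Of the 7 peaks assigned to Rfx1, the one with the closest X-box match thus held the fewest reads.

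Upstream of Rfx1 were peaks of 115, 155, 103 and 195 reads, with summits 2.38, 14.1, 21.8 and 30.5 kb before the start and fold enrichments of 16.9, 9.65, 11.4 and 15.0. Other protein-coding starts were nearer to each of them. The summit at 21.8 kb was 14 bp from a start of Rln3, which encodes the peptide relaxin-3. Those at 2.38 and 30.5 kb lay inside Gm10643 and inside Il27ra, the gene of an interleukin-27 receptor subunit, and the summit at 14.1 kb also had Rln3 as its nearest start. The peak with the most reads assigned to Rfx1, 220 (192 to 251), lay 32.4 kb beyond its end, inside Podnl1 and 1.56 kb from a start of that gene. The start of Rfx1 was the nearest for 1 of its 7 summits.

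Rfx5 (ENSMUSG00000005774.5), the DNA-binding subunit of the RFX complex, spans chr3:94757997-94765483 on the plus strand. Its single peak was at the promoter, from 94757467 to 94758578 with its summit at 94758059, 62 bp after the outermost start and 2 bp from the nearest start among its 18 annotated transcripts. The summit lay in the noncoding part of exon 1 of Rfx5-009. It held 43 reads (31.1 to 57.9), a number reached by 88.8% of all peaks, and had a fold enrichment of 7.06. It had the lowest score of the 27 peaks, 55.15, near the limit of 50.0 at which the list begins.

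Rfxap (ENSMUSG00000036615.4), which encodes the RFX-associated subunit of the complex, spans chr3:54607038-54611713 on the minus strand. It also had 1 peak, from 54610653 to 54612049, with the summit at 54611351 in coding exon 1 and 362 bp after the start. The peak held 81 reads (64.3 to 101) and had a fold enrichment of 7.53. Its window was the richest in G and C of the 27, at 74.5%, with an observed to expected CpG ratio of 1.04 against a median of 0.228 for all peaks. The interval of its reads lies above that of Rfx5, 31.1 to 57.9, while the fold enrichments, which carry no interval, were 7.53 and 7.06. The reads are totals over peaks of unlike length, 1397 bp for Rfxap and 1112 bp for Rfx5.

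Rfxank (ENSMUSG00000036120.9), which encodes the ankyrin-repeat subunit of the complex, spans chr8:72654711-72663096 on the minus strand. It had 5 summits, all outside the gene, and no start of Rfxank was the nearest to any of them. The closest was 1.11 kb beyond its end, with 48 reads and 1.64 kb from a start of Nr2c2ap. The others lay in neighbouring genes. The highest, 156 reads (132 to 182) with a fold enrichment of 18.8, was 41.1 kb from Rfxank inside Hapln4, which encodes a link protein of the extracellular matrix. A peak of 91 reads lay in Ncan, the gene of the brain proteoglycan neurocan, and peaks of 45 and 59 reads lay in Mef2b, where 2310045N01Rik overlaps it, and in Tmem161a. Among the 3 subunits of the complex, Rfx5 and Rfxap thus had a peak at the start and Rfxank did not, where 23.7% of all protein-coding genes had one. The fold enrichments of the start peaks of Rfx5 and Rfxap were below the list median of 8.54. The starts of Rfx5 and Rfxap had no match to the half-sites with fewer than 4 mismatches.

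Rfx7 (ENSMUSG00000037674.7), the relative of Rfx5, spans chr9:72380047-72470744 on the plus strand. In its stretch of 191 kb, 0 summits were listed, as for 32.2% of all protein-coding genes. The nearest summit was just beyond the limit, 52.6 kb from the gene, where 65 reads and a fold enrichment of 10.1 were listed. The list holds only regions that passed a p-value of 1e-05, and its smallest peak has 24 reads, so weaker binding at Rfx7 was not detectable at this depth. On the other side of the limit, the outermost summit that counted was 43.2 kb from Rfxank, and the next one outside was 50.9 kb from the same gene with 45 reads.

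**Figure D2:**
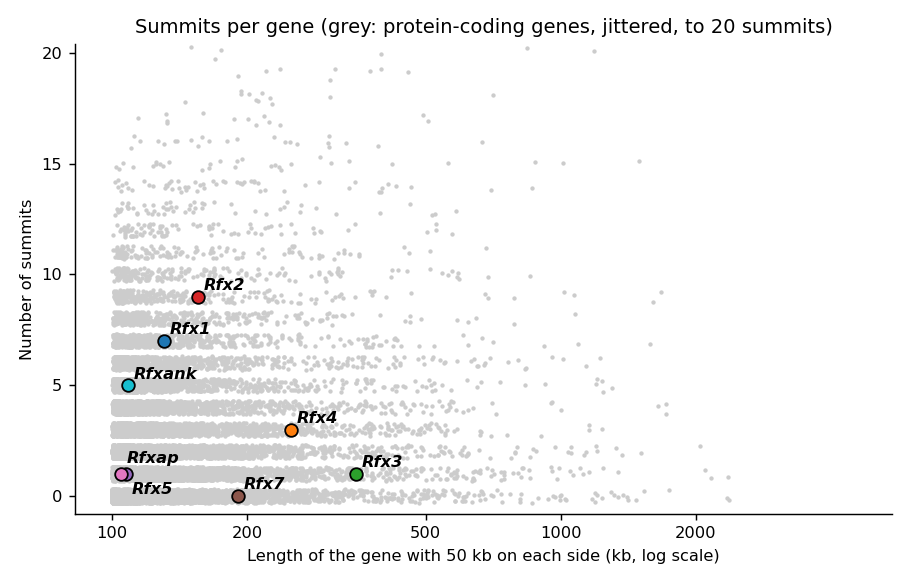
Number of summits in a gene or within 50 kb of it (vertical axis) against the length of that stretch in kb on a log scale. Grey points are protein-coding genes with up to 20 summits, shifted at random within their row, and coloured points are the RFX genes. Rfx2 has 9 and Rfx1 has 7 summits in shorter stretches than Rfx3, which has 1, and Rfx7, which has 0.

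The summits were also counted by place. Of the 27, 11 were in the gene they were assigned to, 7 were upstream and 9 downstream. The 11 comprised 8 in introns, 2 in coding exons and 1 in a noncoding exon. Of the 8, 7 were in intron 1, and 5 of these 7 lay in the same intron of Rfx2. The median was 75.0 reads in the genes and 84.5 reads outside them. Of the 16 summits outside, 9 lay in another protein-coding gene. Counting any protein-coding gene, 20 of the 27 summits (74.1%) were inside one, against 59.7% of all peaks. The 27 were chosen for lying in or within 50 kb of a protein-coding gene, and all peaks were not. A higher share is thus favoured by the rule, and no difference can be read from it. The member was the gene with the nearest start for 10 summits and another gene was for 17. All 10 but the promoter summit of Rfx1 lay inside the member. For the intron, exon and nearest-start counts no share over all peaks was computed, so they describe these summits only.

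**Figure D3:**
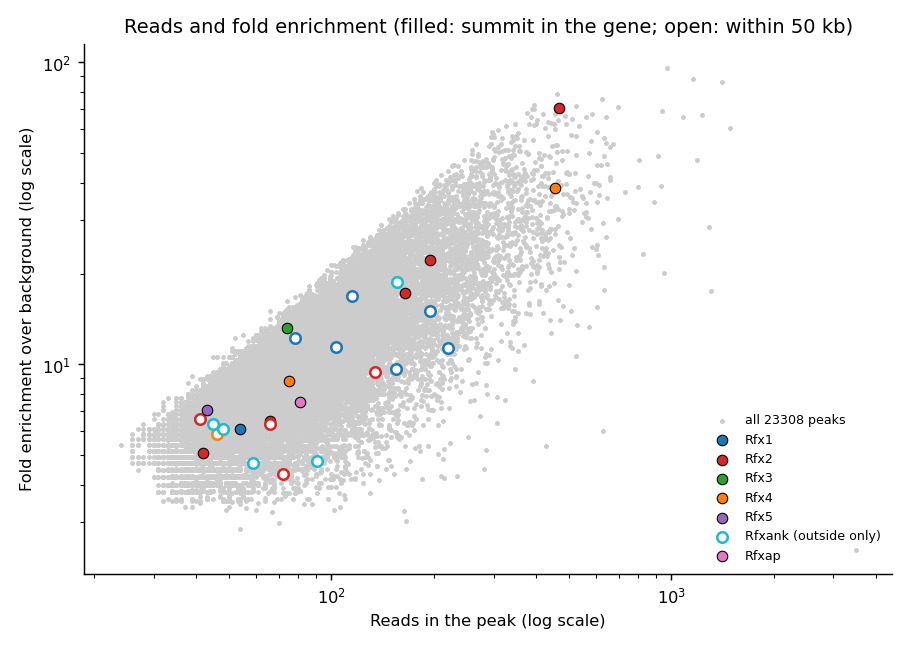
Fold enrichment over background (vertical axis) against reads in the peak (horizontal axis), both on log scales, for all 23308 peaks in grey and the 27 peaks of the RFX genes in colour. Filled points have the summit in the gene and open points within 50 kb of it. The peaks of 469 and 455 reads in Rfx2 and Rfx4 stand apart from the others, which hold at most 220.

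The X-box was then compared over all peaks. A strict X-box pattern, in which some letters of the half-sites may vary, was searched on both strands in the 200 bp around the summit. It occurred at 3 of the 27 summits (11.1%), compared with 6.42% of all peaks and 0.253% of windows of the same length 1 kb to the right of all summits. Of the windows 1 kb to the right of the 27 summits themselves, 1 (3.70%) held it. The 3 peaks were the intronic ones of 455 reads in Rfx4 and of 469 and 195 reads in Rfx2. With at most 2 mismatches to the 12 letters of the half-sites GTTGCC and GGCAAC, 9 of the 27 summits (33.3%) had a match, compared with 19.8% of all peaks and 2.15% of the windows 1 kb to the right. An exact match was present in 0 of the 27 and in 0.875% of all peaks. In the windows 1 kb to the right of the 27 summits, 3 had a match with at most 2 mismatches. A relaxed pattern left more letters free but, unlike the strict one, required at least 1 base between the half-sites. It occurred at 12 of the 27 summits (44.4%), beside 45.9% of all peaks. With it the share at the RFX genes was thus not above that of the list. No test was made of these shares.

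Of the 9 matches counted by peak, 6 were at the 11 summits inside the genes and 3 at the 16 outside. The latter were at the peaks 2.38 kb before Rfx1, in Dus3l and in Hapln4. Peaks with a match had a median of 156 reads and a range of 41 to 469, and peaks without one had a median of 73.5 and a range of 42 to 220. For all peaks the medians were 78.0 and 71.0 reads. The ranges overlap, and the peak in exon 2 of Rfx1 and the peak in Dus3l had a match with 54 and 41 reads. An observed to expected CpG ratio of at least 0.6 was found at 6 of the 27 summits (22.2%), against 16.5% of all peaks. These were the starts of Rfx1, Rfx5 and Rfxap, a summit downstream of Rfx2, the summit 1.10 kb into Rfx2 and the strongest Rfx2 summit, which had 0.828.

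**Figure D4:**
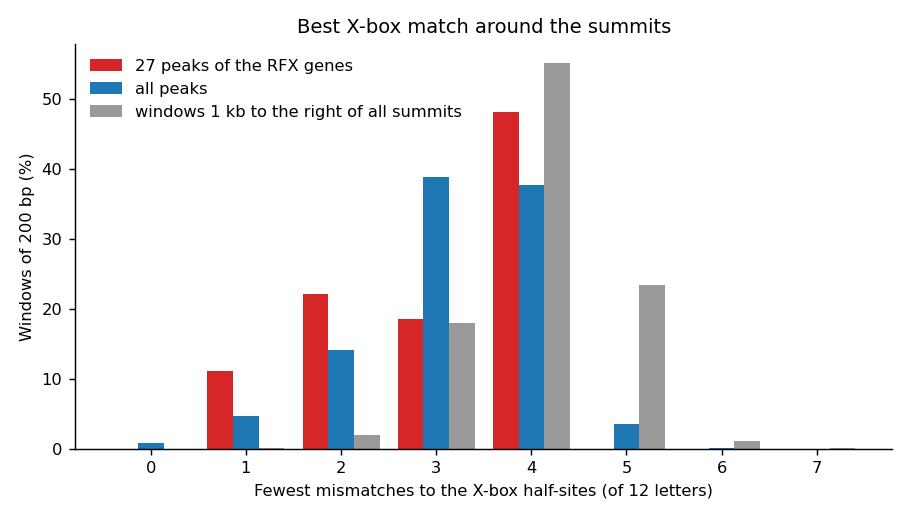
Share of windows of 200 bp in percent (vertical axis) by the fewest mismatches to the 12 letters of the X-box half-sites (horizontal axis), for the 27 peaks of the RFX genes, all peaks, and windows 1 kb to the right of all summits. Matches with 1 or 2 mismatches are present in 9 of the 27 peaks.

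**Figure D5:**
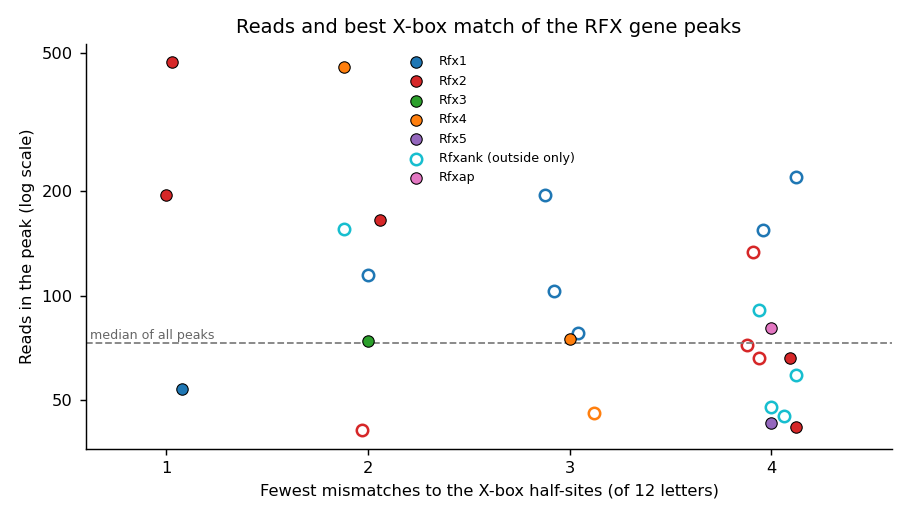
Reads in the peak on a log scale (vertical axis) against the fewest mismatches to the X-box half-sites (horizontal axis) for the 27 peaks, with points shifted sideways within a class for clarity. Filled points have the summit in the gene and open points within 50 kb of it. The Rfx2 peaks of 469 and 195 reads are in the class with 1 mismatch and the Rfx4 peak of 455 reads in that with 2, while the Rfx1 peak of 54 reads also has 1.

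Other genes that work with these proteins were counted the same way. They were Rfx6 and Rfx8 of the family, Ciita, the coactivator of MHC class II genes, Creb1, Nfya, Nfyb and Nfyc, which bind beside the RFX complex at those promoters, and Foxj1, a master regulator of motile cilia. Each of the 8 had a summit within 50 kb (67.8% of all protein-coding genes), 6 had one in the gene (31.3%) and 4 had one at most 1 kb from a start (23.7%). Rfx6, whose reads may include the plasmid, is counted in each of these numbers. Without Rfx6 they had 27 summits with a median of 73.0 reads, and 4 of them (14.8%) had a match with at most 2 mismatches, beside 19.8% of all peaks. Ciita had 3 summits in the gene, of 228, 136 and 235 reads, and that of 228 reads, in intron 1, had the highest fold enrichment of these, 34.8. That summit was 31 bp from a start of a further gene record with the symbol Ciita, which was not counted as a start of the gene. Foxj1 had a peak of 76 reads 522 bp before its start, and Rfx8 had 1 summit in the gene with 36 reads. Rfx6 had 14 summits in the gene, 13 of them in a coding exon. The cells carried a plasmid with Rfx6, and its part in the reads at Rfx6 was not tested. In the 8 genes of the family described here, 2 of 27 summits lay in a coding exon of the member. The share of all peaks in a coding exon was not computed.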

How the data were processed

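Anti-HA ChIP-seq libraries of Min6b1 cells were compared by the authors, and the single peak list deposited for HA-Rfx6 was analysed. The submitters' processing notes name CASAVA 1.8.2, Bowtie, MACS 1.4.2 and mm9. Per the file headers, MACS kept 1 tag per position, retained 33949757 of 49443917 tags against 3567375 of 16911298 in the control, estimated a fragment size d of 234 bp and called regions at a p-value of 1e-05. The deposited values are the count of tags in a peak (called reads here), the fold enrichment (a ratio to background), a score and the FDR in percent. Summits were start + summit - 1, and all 23308 peaks fitted the NCBIM37 chromosomes. Gene, exon and start positions came from GENCODE M1. The named genes are the 8 members, 8 partner genes, and for each summit the gene that holds it and the gene with the nearest start. Members, lists and patterns were chosen with earlier results of these data known. The X-box search and gene assignment were tested on simulated data. Alternatives were stricter peak sets, other distances, rankings and X-box patterns. Python 3.11.15, numpy 2.4.6, pandas 2.3.3, scipy 1.17.1, pysam 0.24.0 and matplotlib 3.10.9 were used.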

Additional observations from a re-analysis of the deposited data

How the results depend on the processing

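No paired analysis was possible because each condition had a single library, and for the same reason no replicate could be left out. Of 43 recomputed values, 27 stayed within 1.5 times the reported one or on the same gene. Among the 8 genes, Rfx2 held the peak with the most reads under each ranking and peak set that left any of their peaks. With the 50% of peaks with the highest scores, 14 of the 27 summits remained, with a median of 156 reads. With a fold enrichment of at least 10, 11 remained with a median of 165 reads. Then 1 gene, Rfx1, kept a summit within 1 kb of a start, and Rfx5 and Rfxap did not. An FDR of at most 1% left 0 summits, 0 of the 8 genes, 0 genes with a summit at the start and 0 of the 8 partner genes, since it kept 10 peaks of the whole list. The number of summits was 11 in the genes alone, 15 within 10 kb, 48 within 100 kb and 10 when the gene had to have the nearest start. Within 5 kb of a start, 5 of the 8 genes had a summit, against 32.8% of all protein-coding genes. The number of peaks with an X-box was 12 with the relaxed pattern (44.4%, beside 45.9% of all peaks) and 9 with at most 2 mismatches (33.3%, beside 19.8%), in place of 3 (11.1%, beside 6.42%). The share above that of all peaks was thus not seen with the relaxed pattern. The control held 3567375 reads after filtering against 33949757, and its effect on the fold enrichments was not tested.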
